A study of Mus musculus with 24 samples.

Results

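Sperm flagellum and axoneme genes are here 37 genes named for their place in the sperm tail, chosen by name but with earlier results of these data known. They code for fibrous sheath, outer dense fibre, tektin, dynein, central pair and radial spoke, manchette and assembly, and midpiece and annulus proteins. Each gene was read by its probes on an Illumina mouse bead array, matched by current symbol or by an older name through the Entrez identifier, and is given by the probe of highest mean. Of the 37 genes, 33 had a probe and 29 were measured, that is, detected at p under 0.01 on at least 3 of 12 arrays, among 12705 genes and unnamed probes measured in all. Fscb, Tekt2, Tekt4 and Meig1 were not found by name among the probes. Ropn1l, Spa17, Dnah1 and Spef2 had probes that no array detected, and they were not tested.

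RNA came from male germ cells of adult mice of a B6/129sv background. The groups used are Nutm1 KO round spermatids, WT round spermatids, Nutm1 KO spermatocytes and WT spermatocytes, with 3 arrays each. Nutm1 encodes Nut, a protein of male germ cells known to bind the acetyltransferase p300, and the study's title names Nut as directing histone H4 acetylation. The mutant is called a KO in the array labels and a knock down in the design text. Spermatocytes are meiotic, and round spermatids are the haploid cells that follow; the label text says that the gradient fractions also take in early elongating spermatids. Each of the 3 arrays of a group is a separate gradient fractionation of testis cells pooled from 3 KO mice or from 2 WT mice, so no array is 1 animal.

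A sperm tail is built on an axoneme, a ring of doublet microtubules around a central pair. Dynein arms on the doublets slide them past each other, and radial spokes and the central pair govern when the arms work. In mammals the axoneme is flanked by outer dense fibres, wrapped in the midpiece by mitochondria and in the principal piece by a fibrous sheath, which ends at the annulus. The manchette is a transient sleeve of microtubules that carries cargo along the spermatid while head and tail take shape. Many of these genes are transcribed in meiosis or in round spermatids, ahead of the assembly of the tail.

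Signals are on the log2 scale after background correction and quantile normalization, and they are not compared between genes. Differences come from a limma model of all 4 groups, and a gene passed when its p-value, adjusted over the 12705 features, was under 0.05.

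The promoter sequences of 4 genes are shown because these genes carried the differences described below: Tctex1d1 and Tppp2, which fell in KO round spermatids, Ropn1, whose difference between the stages was the largest rise, and Septin12, whose difference was the largest fall. Each is the 250 bases before the RefSeq gene start (GRCm38.p6), written 5′ to 3′ on the gene's strand. Capitals mark matches, on either strand, to TGACGT, the core of the cyclic AMP response element, or to GTTGCC, one arm of the X-box bound by RFX factors. Tctex1d1 lies at chr4:102978453-102978702 (plus strand), Tppp2 at chr14:51918511-51918760 (plus strand), Ropn1 at chr16:34650961-34651210 (plus strand) and Septin12 at chr16:4997853-4998102 (minus strand, the more upstream of 2 listed starts).
Tctex1d1: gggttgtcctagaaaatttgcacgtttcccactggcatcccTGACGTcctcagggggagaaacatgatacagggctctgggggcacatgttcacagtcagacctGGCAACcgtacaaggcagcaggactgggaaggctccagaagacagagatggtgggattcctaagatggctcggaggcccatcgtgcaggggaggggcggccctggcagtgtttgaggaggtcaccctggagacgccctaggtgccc
Tppp2: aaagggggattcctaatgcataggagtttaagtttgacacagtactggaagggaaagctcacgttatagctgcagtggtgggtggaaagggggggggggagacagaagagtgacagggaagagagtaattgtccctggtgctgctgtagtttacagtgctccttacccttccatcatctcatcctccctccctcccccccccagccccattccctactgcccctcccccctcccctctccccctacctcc
Ropn1: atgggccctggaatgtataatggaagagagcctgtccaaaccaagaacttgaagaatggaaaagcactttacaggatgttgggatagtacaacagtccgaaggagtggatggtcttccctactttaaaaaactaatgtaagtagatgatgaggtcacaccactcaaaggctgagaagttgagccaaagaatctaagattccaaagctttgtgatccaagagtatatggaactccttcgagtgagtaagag
Septin12: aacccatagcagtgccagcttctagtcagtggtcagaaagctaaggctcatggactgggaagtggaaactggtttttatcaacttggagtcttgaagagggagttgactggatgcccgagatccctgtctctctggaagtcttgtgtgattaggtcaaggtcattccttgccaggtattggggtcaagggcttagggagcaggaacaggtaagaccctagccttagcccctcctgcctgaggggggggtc
The Tctex1d1 promoter held both motifs, with the response element core beginning 209 bases before the start and the X-box arm 146 bases before it, which reads GGCAAC on the strand shown. Neither motif was found in the other 3 sequences. Counted over windows that also take in the 50 bases after the start, 32 of the 37 genes had 46 listed windows, and TGACGT was in 6 of these (13%, 4 genes) against 7.51% of 32851 windows of all genes. GTTGCC was in 12 of the 46 windows (26.1%, 11 genes) against 12.5% of all windows. The complete element TGACGTCA was in 0 of the 46 windows and in 1.79% of all. The 2 short motifs share no letters in the Tctex1d1 match, but TGACGT is contained in TGACGTCA. These are matches of letters, not shown to be sites of binding.

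As a check of the labels, the single probe of Nutm1 read 6.81, 6.75 and 7.03 in KO round spermatids, against 8.52, 8.40 and 8.18 in WT round spermatids, so that KO was lower by -1.50 (SE 0.24, limma adjusted p = 0.00156). In spermatocytes it differed by -0.65 (SE 0.24) without passing (adjusted p = 0.546). Whether this probe lies in the altered part of the gene is not given. The 12 arrays detected 13849 to 16244 of 45281 probes. Of the cell type markers, 13 of 16 measured for round spermatids were higher in round spermatids than in spermatocytes of KO mice and 11 of 16 in WT mice, beside 26.4% and 28.4% of all features. Of 14 measured for spermatocytes, 5 were lower in KO and 6 in WT, beside 24.0% and 31.9% of all features. The median difference of the 14 was 0.02 in KO and -0.34 in WT, beside 0.01 and -0.12 over all features. Another 2 of the 14 spermatocyte markers were higher in round spermatids in each genotype, by up to 2.60 in KO and 2.81 in WT. The spermatocyte markers Sycp3, Dmc1, Hormad1 and Tex12 have probes that did not pass the detection filter. WT spermatocyte array 3 stood apart, with a mean round spermatid marker signal of 12.50 against 11.69 and 11.81 on the other WT spermatocyte arrays. It was the highest WT spermatocyte array for 21 of the 29 flagellum genes, and the share of all features highest on it was not counted. KO spermatocyte array 1 stood apart in Leydig cell markers, at 12 against 7.48 and 9.52. Results that change without these arrays are given with and without them.

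In KO round spermatids 2 of the flagellum genes fell relative to WT, and the differences of the other 27 did not pass. Tctex1d1, of the Tctex-type dynein light chain family, and Tppp2, of the tubulin polymerization promoting protein family, were lower in KO than in WT round spermatids, by 5.19-fold and 4.0-fold. Of the 29 measured genes 0 were higher and 2 lower, against a background of 6.89% higher and 7.99% lower among all features (14.9% in either direction). The median KO minus WT difference of the 29 genes was -0.07 on the log2 scale, beside 0.12 over all features. At an unadjusted p under 0.05, 3 of the genes were higher and 5 lower, beside 32.2% of all features in either direction. The differences of the other 27 genes ran from -0.91 to 0.55, with standard errors of 0.14 to 0.44 over the 29 genes, and 21 of the 29 lay within 0.5 of zero. Arrays of KO and WT did not overlap for 16 of the 29 genes (8 higher, 8 lower), beside 43.4% of all features (26.1% higher, 17.3% lower). In RNA of a whole fraction, fewer cells of a type and less RNA per cell cannot be told apart.

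Among the dynein genes, Tctex1d1 (chromosome 4) read 8.30, 8.44 and 8.19 in KO round spermatids, against 10.66, 10.72 and 10.68 in WT round spermatids. The 3 KO arrays lay more than 2 log2 units below each WT array, while the WT arrays differed among themselves by only hundredths. The fitted difference was -2.38 (SE 0.31, limma adjusted p = 0.000273). A second probe of Tctex1d1, detected on 7 of 12 arrays with a mean signal of 5.68, differed by 0.21 (adjusted p = 0.527 over the probes), so the fall is read by 1 of the gene's 2 probes. Dnai1, an outer arm intermediate chain, read 12.14, 12.17 and 11.98 in KO round spermatids, against 11.62, 11.44 and 11.69 in WT round spermatids. Its KO arrays were all above its WT arrays, but the difference of 0.51 (SE 0.17) did not pass (adjusted p = 0.059), and a second probe, detected on all 12 arrays, gave 0.13 (adjusted p = 0.657 over the probes). The first probe passed when only round spermatid arrays were fitted (adjusted p = 0.0454), without KO spermatocyte array 1 (adjusted p = 0.0444) and without KO spermatocyte array 3 (adjusted p = 0.0341). The second outer arm intermediate chain, Dnai2, differed by 0.47 and the outer arm heavy chain Dnah8 by 0.55, neither past the threshold (adjusted p = 0.289 and 0.418). Dnah17, another outer arm heavy chain, the inner arm light intermediate chain Dnali1 and the light chain Tcte3 differed by -0.15, -0.10 and 0.19. A second probe of Dnali1 gave 0.77 and passed over the 17401 probes (adjusted p = 0.0253).

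Of the manchette and assembly genes, Tppp2 (chromosome 14) read 9.67, 10.26 and 10.13 in KO round spermatids, against 12.22, 12.28 and 11.56 in WT round spermatids. The groups did not overlap, and WT array 3 was the lowest WT array. The difference was -2.0 (SE 0.41, limma adjusted p = 0.00682), and a second probe of the gene was detected on no array. Hook1, which links the manchette to its cargo, differed by -0.43 (adjusted p = 0.483). Its 3 detected probes gave -0.43 to -0.74. Cetn1, a centriolar centrin, differed by -0.52 (adjusted p = 0.337).

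**Figure D1:**
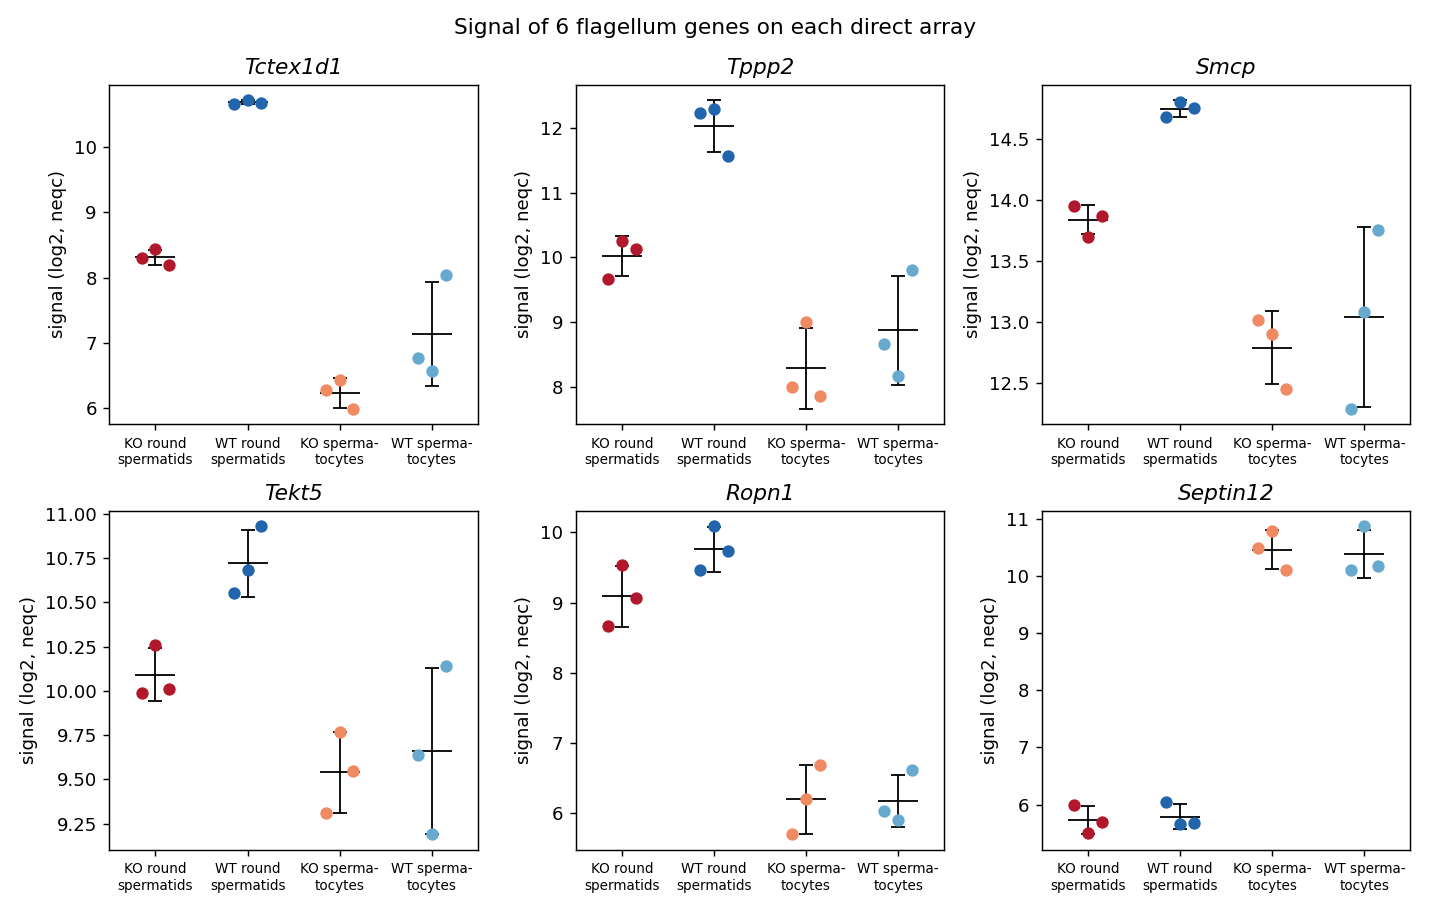
Signal (log2, neqc) of 6 flagellum genes on each of the 3 direct arrays of KO round spermatids, WT round spermatids, KO spermatocytes and WT spermatocytes; points are arrays in replicate order, the long tick is the mean and bars are the SD, and each panel has its own vertical axis. Tctex1d1 averaged 8.31 in KO and 10.69 in WT round spermatids and Tppp2 averaged 10.02 in KO and 12.02 in WT round spermatids, whereas Septin12 lay at 5.73 and 5.79 in KO and WT round spermatids and above 10 in spermatocytes.

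In the midpiece group, Smcp, the cysteine-rich protein of the mitochondrial capsule, read 13.95, 13.70 and 13.87 in KO round spermatids, against 14.68, 14.81 and 14.76 in WT round spermatids. The KO arrays were all below the WT arrays, yet the difference of -0.91 (SE 0.30) did not pass (adjusted p = 0.0601). With only round spermatid arrays in the fit it passed (adjusted p = 0.00519), as it did without WT spermatocyte array 3 (adjusted p = 0.0184) or without WT spermatocyte array 1 (adjusted p = 0.0175). Gpx4, the selenoprotein of the mitochondrial capsule, differed by -0.22 and its 3 probes by -0.64 to -0.22. Septin12, of the annulus, differed by -0.07 near the detection limit. It averaged 5.73 in KO and 5.79 in WT round spermatids and was detected on 3 of 3 KO and 1 of 3 WT arrays.

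No tektin, a filament protein of doublet microtubules, passed between KO and WT. Tekt5 read 9.99, 10.26 and 10.01 in KO round spermatids, against 10.55, 10.68 and 10.93 in WT round spermatids. All 3 KO arrays were below the WT arrays, and the difference of -0.63 (SE 0.23) did not pass (adjusted p = 0.086) but passed without WT spermatocyte array 3 (adjusted p = 0.0444) and with only round spermatid arrays in the fit (adjusted p = 0.0331). Tekt1 and Tekt3 differed by 0.40 and 0.45, with KO arrays above WT arrays for both (adjusted p = 0.124 and 0.0966).

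Fibrous sheath genes showed no difference that passed. Ropn1, ropporin, a partner of kinase anchoring proteins, read 8.67, 9.53 and 9.07 in KO round spermatids, against 9.46, 10.09 and 9.73 in WT round spermatids. The ranges overlapped, and the difference was -0.67 (SE 0.30, adjusted p = 0.146). Akap4, the main structural protein of the sheath, read 13.16, 13.27 and 13.21 in KO and 13.59, 13.45 and 13.66 in WT round spermatids. Its groups did not overlap, at a difference of -0.35 (SE 0.34, adjusted p = 0.506), and its 4 detected probes gave -0.97 to -0.35. Akap3, which also anchors protein kinase A, and Cabyr, a calcium-binding protein of the sheath, differed by 0.08 and 0.31, and Akap3 by -0.17 under cyclic loess scaling.

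No outer dense fibre gene passed in this comparison. Odf1, a core protein of the fibres, read 14.91, 14.82 and 14.83 in KO round spermatids, against 15.23, 15.08 and 15.18 in WT round spermatids. The KO arrays were below the WT arrays by a difference of -0.31 (SE 0.24, adjusted p = 0.4). Odf2, Odf3, Odf4 and the testis antizyme Oaz3 differed by 0.04, 0.20, -0.19 and -0.18, and under cyclic loess scaling Odf2 and Odf3 were at -0.04 and -0.03. With a signal of up to 15.23, Odf1 lies near the highest value of any probe (15.27), and 9 of the 29 genes (Odf1, Odf2, Odf4, Oaz3, Tekt1, Tcte3, Rsph1, Smcp and Gpx4) averaged over 14 in a group, a level reached by 1.66% of features. Whether differences are compressed at this brightness was not tested.

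All 4 measured central pair and radial spoke genes had slightly higher KO values, and none passed. Rsph9, of the radial spoke head, read 12.92, 12.99 and 13.13 in KO round spermatids, against 12.69, 12.84 and 12.69 in WT round spermatids. Its groups lay apart by a difference of 0.28 (SE 0.16, adjusted p = 0.269). Spag6, Spag16 and Rsph1 differed by 0.27, 0.24 and 0.26, and the 4 detected probes of Spag16 by 0.16 to 0.39. Under the authors' normalization and under cyclic loess scaling the 4 genes kept positive values. These differences are to be set against the median of 0.12 over all features; with cyclic loess scaling that median was -0.02.

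Elongating spermatid markers moved with the comparison of round spermatids. All 8 measured markers had lower KO values, and 2 of them passed, beside 7.99% of all features called lower. Their mean signal was 12.08 to 12.26 on KO arrays and 12.76 to 12.86 on WT arrays. Round spermatid markers read 12.84 to 13.08 on KO arrays and 12.93 to 13.05 on WT arrays. The lists are not separate: Prm1, Tnp1, Tnp2 and Gapdhs are 4 of the 8 elongating and of the 16 round spermatid markers. Macrophage markers read 6.93 to 8.24 on KO arrays and 6.46 to 7.25 on WT arrays, and the 3 measured erythroid markers read 7.66 to 8.81 on KO arrays and 8.88 to 9.94 on WT arrays. Of 10 listed markers of ciliated epithelium, another tissue with axonemes, 4 were measured: Foxj1, Fam183b, Dynlrb2 and Krt8. Scgb1a1, Tmem212, Mcidas, Krt18 and Epcam had probes that did not pass the detection filter. Dynlrb2 is also in the wider list of flagellum genes given below. The mean of the 4 was 9.80 to 9.97 on KO and 9.85 to 10.38 on WT arrays. The part of these shifts in the differences of Tctex1d1, Tppp2, Smcp and the other flagellum genes was not tested.

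**Figure D2:**
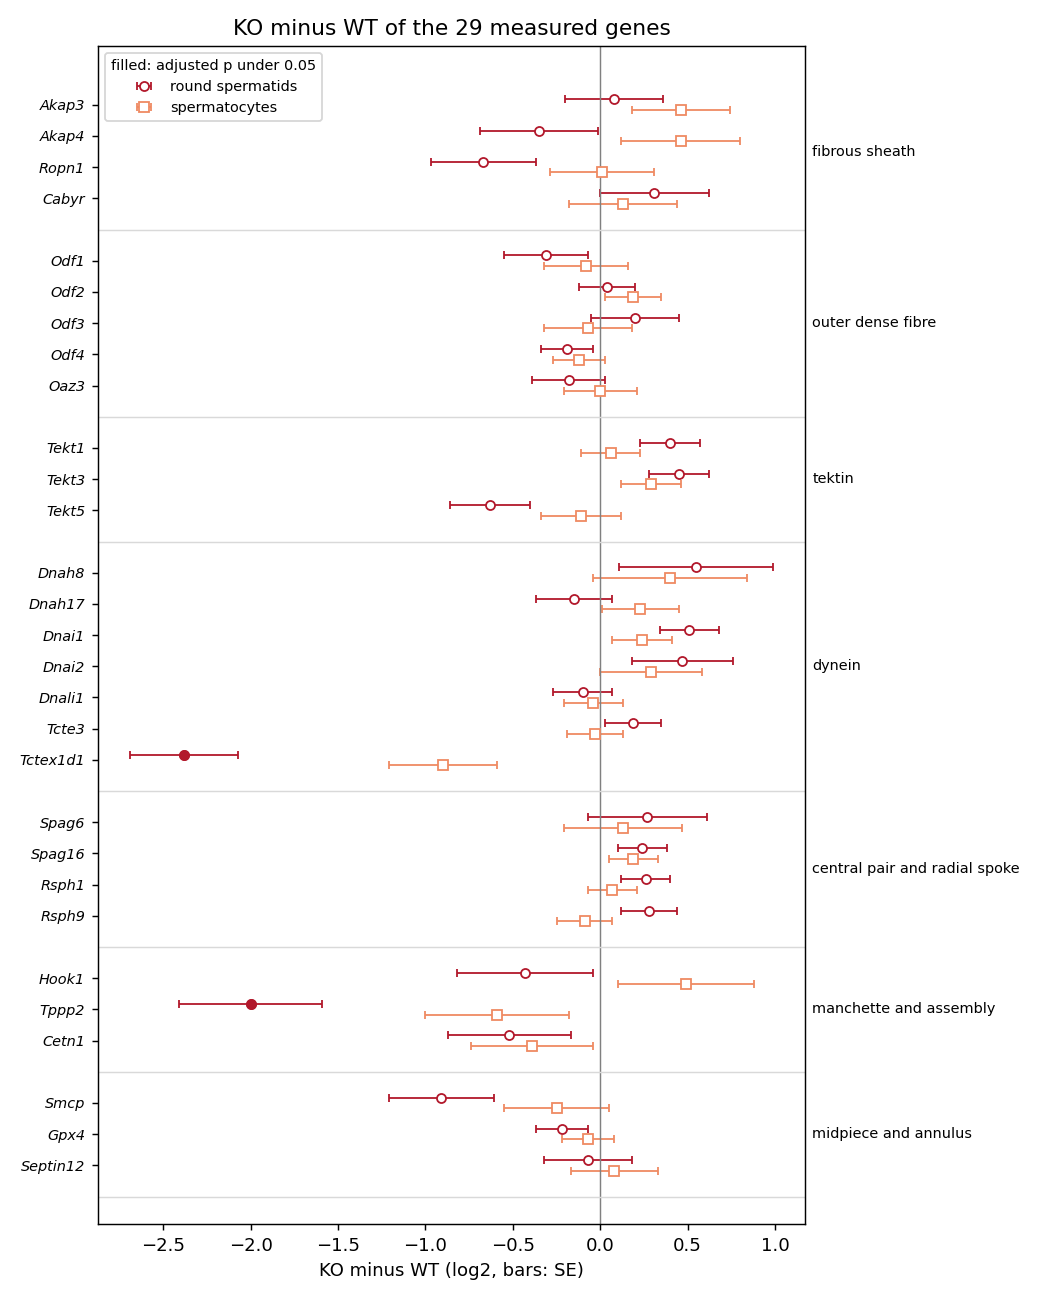
KO minus WT difference (log2) of each of the 29 measured flagellum genes, grouped by role, in round spermatids (circles) and spermatocytes (squares); bars are the standard error of the fit and filled symbols passed the test. Tctex1d1 at -2.38 and Tppp2 at -2.0 in round spermatids are the only filled symbols, and the remaining round spermatid differences lie between -0.91 and 0.55.

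In spermatocytes 0 of the 29 genes were higher and 0 lower in KO than in WT, against a background of 0.189% higher and 0.645% lower among all features (0.834% in either direction). Unadjusted, 1 gene was lower and 0 higher at p under 0.05, beside 6.89% of all features, and the smallest limma adjusted p was 0.434. The median difference was 0.06, beside -0.00 over all features. Tctex1d1 had the largest difference, -0.90 (SE 0.31), with 6.27, 6.43 and 5.99 in KO spermatocytes and 6.77, 6.57 and 8.04 in WT spermatocytes. The groups lay apart, though the third WT array, the one with high round spermatid markers, was far above the others. Without it the difference was -0.44 (adjusted p = 0.479). Tppp2 read 8.01, 9.01 and 7.86 in KO spermatocytes and 8.67, 8.17 and 9.81 in WT spermatocytes, which overlapped (-0.59, adjusted p = 0.897), and without the third WT array the difference was -0.13. Arrays of the groups did not overlap for 3 of the 29 genes (Tekt3, Spag16 and Tctex1d1), beside 9.20% of all features (3.90% higher, 5.30% lower).

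The difference between the KO effects of the stages did not pass for any of the 29 genes, against 1.49% of features called (0.181% positive, 1.31% negative). The median of the genes was -0.13, beside 0.09 over all features. Unadjusted, 2 genes were negative and 0 positive at p under 0.05, beside 14.9% of all features in either direction. Of all features, 804 were negative and 1091 positive at that level. For Tctex1d1 the KO effect was more negative in round spermatids than in spermatocytes by -1.48 (SE 0.44, limma adjusted p = 0.138), and for Tppp2 by -1.41 (SE 0.58, adjusted p = 0.28). Without WT spermatocyte array 3, Tctex1d1 passed at -1.94 (adjusted p = 0.00131) and Tppp2 was at -1.87 (adjusted p = 0.06). The falls in round spermatids themselves held without that array, at adjusted p = 2.6e-06 for Tctex1d1 and 0.00178 for Tppp2.

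Between the stages, most flagellum genes were higher in round spermatids than in spermatocytes, in either genotype. In KO mice 15 of the 29 genes were higher and 4 lower, against a background of 26.4% higher and 24.0% lower (50.4% in all). In WT mice 17 were higher and 5 lower, against 28.4% higher and 31.9% lower (60.3% in all). The median difference of the genes was 0.66 in KO, beside 0.01 over all features, and 0.78 in WT, beside -0.12. The same 14 genes were higher and 4 lower in both genotypes, and 6 passed in neither. Arrays of the stages did not overlap for 26 genes in KO (21 higher, 5 lower) and 24 in WT (18 higher, 6 lower), beside 57.9% of all features in KO (30.3% higher, 27.6% lower) and 67.7% in WT (30.9% higher, 36.9% lower). The stage comparisons share no arrays between genotypes, and over the 29 genes their differences correlated at 0.96 (Pearson's r, a description across genes, which are not independent), beside 0.88 over all features. Septin12, at -4.73 in KO and -4.59 in WT, lies far below the other genes and weighs on the r of 0.96. The r without Septin12 was not computed.

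All 4 measured fibrous sheath genes were higher in round spermatids of both genotypes. Ropn1 gave the largest rise, with arrays reading 8.67, 9.53 and 9.07 in KO round spermatids, against 5.70, 6.21 and 6.69 in KO spermatocytes. In WT mice it read 9.46, 10.09 and 9.73 in round spermatids, against 6.03, 5.91 and 6.61 in spermatocytes. No round spermatid array came within 1 log2 unit of a spermatocyte array, and the differences were 2.89 in KO (SE 0.30, limma adjusted p = 3.42e-05, 7.43-fold) and 3.58 in WT (SE 0.30, adjusted p = 4.89e-06, 11.9-fold). Akap4 rose by 1.14 in KO (SE 0.34, adjusted p = 0.0145) and 1.95 in WT (SE 0.34, adjusted p = 0.000371). Its spermatocyte arrays read 11.95, 11.69 and 12.57 in KO and 11, 11.30 and 12.55 in WT, all below the round spermatid arrays given above. Cabyr read 13.21, 13.33 and 13.53 in KO round spermatids, against 11.69, 11.39 and 11.95 in KO spermatocytes, with no overlap. Cabyr rose by 1.69 in KO and 1.51 in WT, and Akap3 by 1.18 in KO and 1.56 in WT. For Akap4 the KO call was lost without KO spermatocyte array 2 (0.95, adjusted p = 0.0581).

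The 3 measured manchette and assembly genes rose too. Tppp2 was 3.31-fold higher in round spermatids of KO mice (1.73, SE 0.41, adjusted p = 0.00412) and 8.8-fold higher in those of WT mice (3.14, SE 0.41, adjusted p = 5.31e-05). Hook1 read 10.38, 10.69 and 10.37 in KO round spermatids, against 8.77, 8.82 and 9.90 in KO spermatocytes, and 10.64, 10.88 and 11.22 in WT round spermatids, against 8.12, 8.23 and 9.65 in WT spermatocytes. The third spermatocyte array was the highest in both genotypes, and the differences were 1.32 in KO (SE 0.39, adjusted p = 0.0152) and 2.24 in WT (SE 0.39, adjusted p = 0.000402). The KO call of Hook1 was lost without KO round spermatid array 2 (adjusted p = 0.0527) or KO spermatocyte array 2 (adjusted p = 0.056). Cetn1 was detected on no KO spermatocyte array, and it was at least 1.74-fold higher in KO round spermatids (adjusted p = 0.0204), a bound set against the lowest detected signal of each KO spermatocyte array. This KO call was lost without KO spermatocyte array 1 (adjusted p = 0.0542), KO round spermatid array 2 (adjusted p = 0.0677) or array 3 (adjusted p = 0.0833), with no detection filter (adjusted p = 0.0523) and with the authors' processed values, where the difference was 0.39 (adjusted p = 0.0667), while in WT mice it rose by 1.23 (adjusted p = 0.00914).

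Dynein genes split in direction between the stages. Tctex1d1 rose by 2.08 in KO (SE 0.31, adjusted p = 0.000268, 4.23-fold) and by 3.56 in WT (SE 0.31, adjusted p = 5.23e-06, 11.8-fold), and KO round spermatids still read above KO spermatocytes on every array. Its second probe gave 0.62 in KO and 0.22 in WT. Dnali1 rose by 0.72 and 0.78 in KO and WT, but its second probe, of lower signal, gave -0.61 and -1.31, so the direction depends on the probe, and with the mean of the probes neither genotype passed (0.06 in KO, -0.27 in WT). The heavy chains fell: Dnah17 was lower in round spermatids by -1.13 in KO (SE 0.22, adjusted p = 0.00127) and -0.74 in WT (SE 0.22, adjusted p = 0.0104). Dnah17 read 9.19, 9.15 and 8.75 in KO round spermatids, against 9.85, 10.46 and 10.16 in KO spermatocytes, with no overlap. In WT mice it read 9.05, 9.26 and 9.24 in round spermatids, against 9.91, 10.26 and 9.60 in spermatocytes, and its call was lost without WT spermatocyte array 2 (-0.58, adjusted p = 0.0551). Dnah8 was lower by -1.27 in KO (adjusted p = 0.0299) and -1.43 in WT (adjusted p = 0.0142). Its arrays scattered, at 11.36, 12.37 and 12.02 in KO round spermatids, against 12.31, 13.80 and 13.45 in KO spermatocytes, which overlap. In WT mice Dnah8 read 10.83, 11.27 and 11.98 in round spermatids, against 12.36, 13.52 and 12.48 in spermatocytes, which do not overlap. The KO call of Dnah8 was lost without KO spermatocyte array 2 (adjusted p = 0.116) or 3 (adjusted p = 0.0938) or KO round spermatid array 1 (adjusted p = 0.113) or 3 (adjusted p = 0.059), under cyclic loess scaling (adjusted p = 0.0597) and with no detection filter (adjusted p = 0.0809), and its WT call without WT round spermatid array 1 (adjusted p = 0.0592) or WT spermatocyte array 2 (adjusted p = 0.0698). Dnai1 was lower by -0.34 in KO, which did not pass (adjusted p = 0.111), and by -0.61 in WT, which did (adjusted p = 0.00704), with WT spermatocytes at 12.22, 12.12 and 12.25, all above the WT round spermatid arrays given above. Under cyclic loess scaling the WT call of Dnai1 was lost (-0.35, adjusted p = 0.109), and its second probe gave -0.25 in KO and -0.17 in WT. In KO, Dnai1 passed as lower in 2 of 22 alternatives, the authors' processed values and all 6 arrays per group. Dnai2 and Tcte3 passed in neither genotype. Dnai2 did pass in KO with fractionations as a replicate block (0.66, adjusted p = 0.0494) and with only the groups compared (adjusted p = 0.0168), in WT with all 6 arrays per group (0.49, adjusted p = 0.0469), and without WT spermatocyte array 1 in both KO (adjusted p = 0.0115) and WT (0.88, adjusted p = 0.00413).

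The largest stage difference of the 29 genes was a fall. Septin12, a septin of the annulus, read 6.00, 5.50 and 5.69 in KO round spermatids, against 10.49, 10.78 and 10.11 in KO spermatocytes. In WT mice it read 6.05, 5.66 and 5.68 in round spermatids, against 10.10, 10.87 and 10.18 in spermatocytes. The stages were separated by over 4 log2 units on every array, and the gene was detected on 3 of 3 KO and 1 of 3 WT round spermatid arrays. The differences were -4.73 in KO (SE 0.25, limma adjusted p = 1.36e-06, 26.6-fold lower) and -4.59 in WT (SE 0.25, adjusted p = 1.02e-06, 24.0-fold lower). Of the midpiece genes, Smcp rose by 1.05 in KO (adjusted p = 0.0116) and 1.70 in WT (adjusted p = 0.000389). Gpx4 differed by 0.34 in KO without passing (adjusted p = 0.083) and rose by 0.49 in WT (adjusted p = 0.015). Its other 2 probes passed in KO over the probes, at 0.60 (adjusted p = 0.0125) and 1.51 (adjusted p = 0.000837), and Gpx4 passed in KO with the authors' processed values (adjusted p = 0.0242), with no detection filter (adjusted p = 0.0452) and with the mean of the probes (0.82, adjusted p = 0.00275). The WT call of Gpx4 was lost without WT round spermatid array 2 (adjusted p = 0.0633).

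Radial spoke and central pair genes were likewise split. Spag6, a central pair protein, read 9.39, 9.48 and 9.63 in KO round spermatids, against 7.16, 7.67 and 7.82 in KO spermatocytes, a rise of 1.95 (SE 0.34, adjusted p = 0.00075). In WT mice it read 8.77, 9.45 and 9.47 in round spermatids, against 7.05, 6.89 and 8.33 in spermatocytes, a rise of 1.81 (SE 0.34, adjusted p = 0.000687). Neither genotype showed overlap. Rsph1, of the radial spoke head, read 14.70, 14.61 and 14.51 in KO round spermatids, against 15.27, 15.27 and 15.12 in KO spermatocytes. In WT mice it read 14.39, 14.37 and 14.26 in round spermatids, against 15.23, 15.12 and 15.12 in spermatocytes. No arrays of the stages overlapped, with 2 KO spermatocyte arrays at the highest value of any probe (15.27), and Rsph1 fell by 0.62 in KO (adjusted p = 0.00334) and by 0.82 in WT (adjusted p = 0.000353). Spag16 and Rsph9 passed in neither genotype, although Spag16 passed in WT with the authors' processed values (-0.23, adjusted p = 0.0415) and Rsph9 in KO under cyclic loess scaling (0.41, adjusted p = 0.047).

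Among outer dense fibre genes Odf1 rose by 0.82 in KO and 1.05 in WT, Odf3 by 1.18 and 0.91 and Oaz3 by 0.70 and 0.87. The KO call of Oaz3 was lost without KO spermatocyte array 2 (0.63, adjusted p = 0.0526). Odf2 passed in WT only narrowly (0.41, adjusted p = 0.0403), with 0.26 in KO (adjusted p = 0.19), and its 6 probes disagreed, at -0.57 to 2.80 in WT. The Odf2 call was lost with fractionations as a replicate block (adjusted p = 0.0873) and without each of 8 arrays, at adjusted p of up to 0.155 without WT spermatocyte array 1. Odf4 passed in neither genotype (-0.02 in KO, 0.05 in WT), but 1 of its 3 probes gave 0.32 in KO and 0.84 in WT (adjusted p = 0.0055 over the probes in WT). Of the tektins, Tekt3 passed in KO (0.55, adjusted p = 0.0197) and Tekt5 in WT (1.06, adjusted p = 0.00181), and Tekt1 passed in neither. The Tekt3 call was lost with the replicate block (adjusted p = 0.0556), without KO round spermatid array 2 (adjusted p = 0.0723) or 3 (adjusted p = 0.069) and without KO spermatocyte array 2 (adjusted p = 0.0646). Tekt5 passed in KO too (0.54) with the block (adjusted p = 0.0468), with only the groups compared (adjusted p = 0.0476) and without WT spermatocyte array 2 (adjusted p = 0.0446) or 3 (adjusted p = 0.034). Tekt3 passed in WT without WT spermatocyte array 3 (0.47, adjusted p = 0.0488), with the authors' processed values (0.38, adjusted p = 0.0335) and under cyclic loess scaling (0.74, adjusted p = 0.00357).

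**Figure D3:**
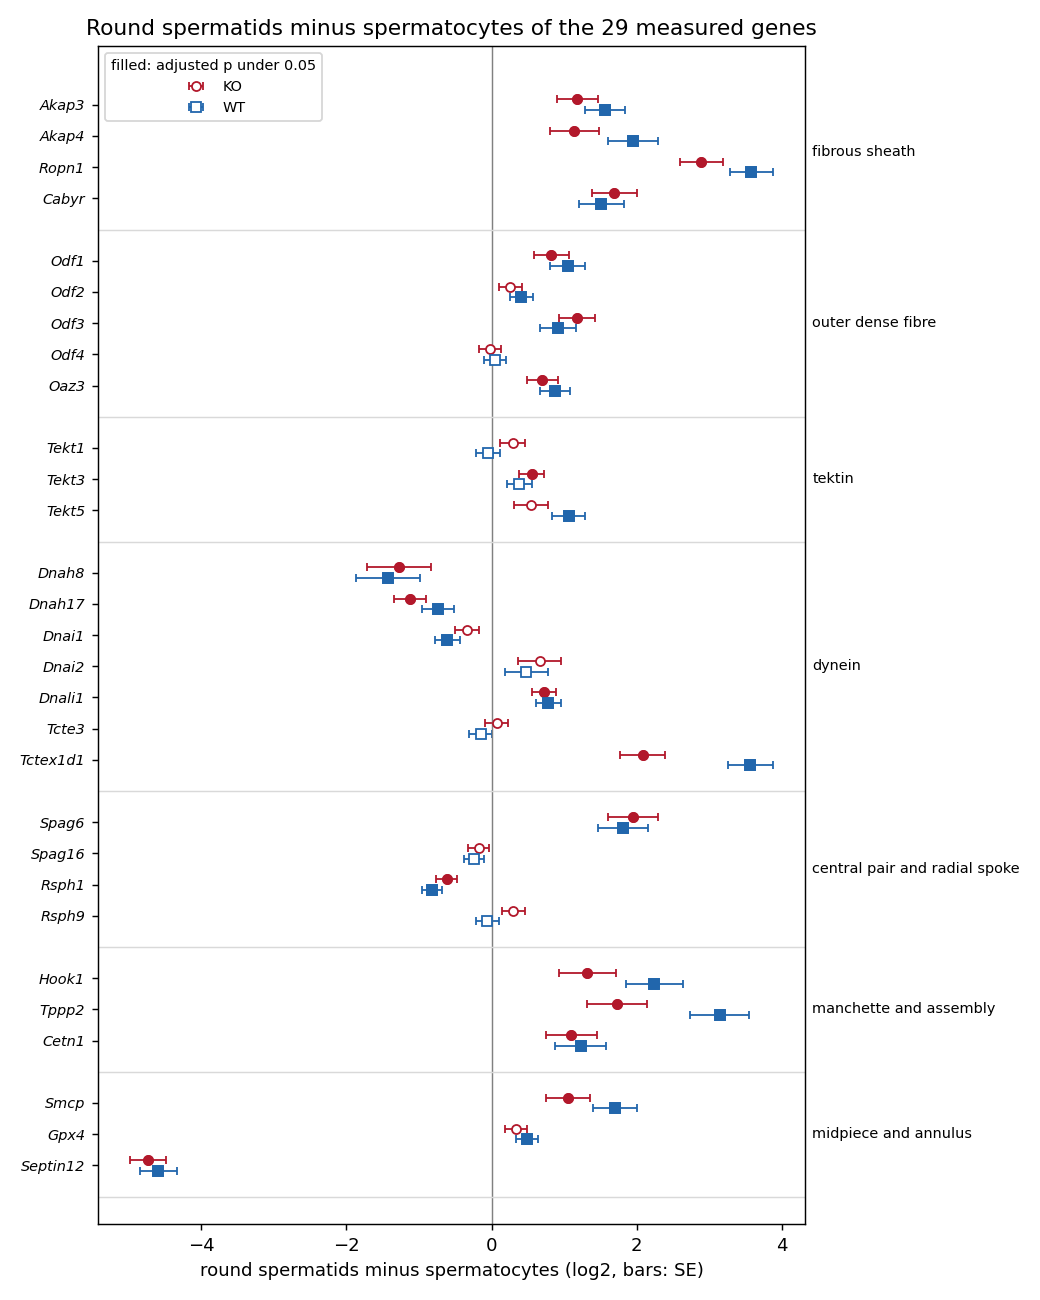
Round spermatids minus spermatocytes (log2) of each of the 29 measured flagellum genes, grouped by role, in KO (circles) and WT (squares); bars are the standard error of the fit and filled symbols passed the test. Ropn1 lies at 2.89 and 3.58 and Septin12 at -4.73 and -4.59, and all fibrous sheath genes lie right of zero in both genotypes.

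Leydig cell markers were lower in the round spermatid fractions, at 5.66 to 7.62 against 7.48 to 12 in spermatocyte fractions, and macrophage markers were higher, at 6.46 to 8.24 against 5.16 to 6.25. Erythroid markers read 7.66 to 9.94 in round spermatid fractions against 5.37 to 6.26 in spermatocyte fractions, and elongating spermatid markers 12.08 to 12.86 against 11.14 to 11.80. The 4 measured ciliated epithelium markers, which include the flagellum gene Dynlrb2, read 9.80 to 10.38 against 8.96 to 9.42. Of 11 measured Sertoli cell markers, 7 were higher in round spermatid fractions in KO and 6 in WT, beside 26.4% and 28.4% of all features. The part of these shifts in the stage differences was not tested. Without WT spermatocyte array 3, 16 genes were higher and 4 lower in KO and 18 were higher and 5 lower in WT. Of all calls in that setting, 52.6% were higher in KO and 46.2% in WT. Without it and KO spermatocyte array 1 together the counts were 14 and 4 in KO and 18 and 5 in WT. Of all calls there, 52% were higher in KO and 44.9% in WT. The share of all features called in these 2 settings is not given, so the counts have no background beside them.

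**Figure D4:**
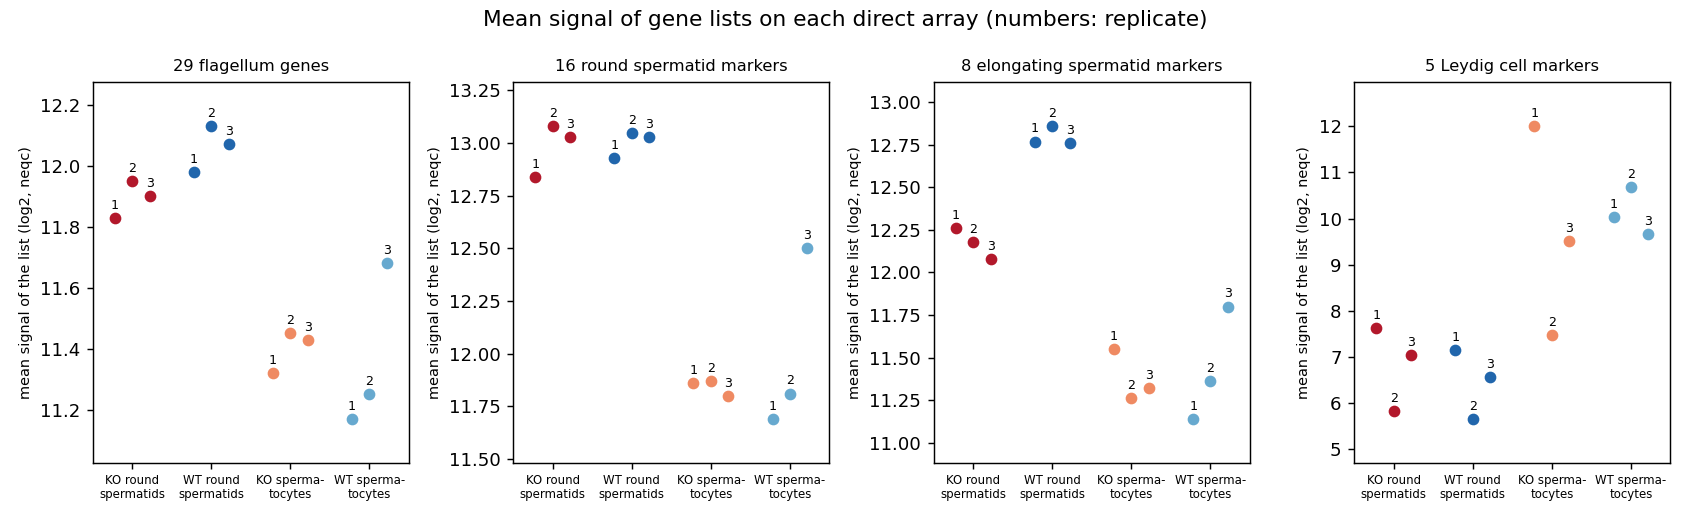
Mean signal (log2, neqc) of the 29 flagellum genes, 16 round spermatid markers, 8 elongating spermatid markers and 5 Leydig cell markers on each direct array of the 4 groups; digits are replicate numbers and each panel has its own vertical axis. The flagellum genes averaged 11.83 to 11.95 on KO and 11.98 to 12.13 on WT round spermatid arrays, and WT spermatocyte array 3, at 11.68, lies above the other spermatocyte arrays (11.17 to 11.45).

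More than 1 detected probe read 13 of the 29 genes. For 10 of the 13 the probes gave 1 sign for KO minus WT in round spermatids, and Dnali1, Odf2 and Tctex1d1 gave both signs. In the stage difference of WT mice 10 of the 13 gave 1 sign as well, and Dnali1, Odf2 and Tekt1 gave both. In that comparison the 4 probes of Akap4 gave 1.95 to 2.64, the 3 of Hook1 gave 1.45 to 2.67 and the 3 of Gpx4 gave 0.49 to 1.91. Which transcripts each probe reads was not analysed here.

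**Figure D5:**
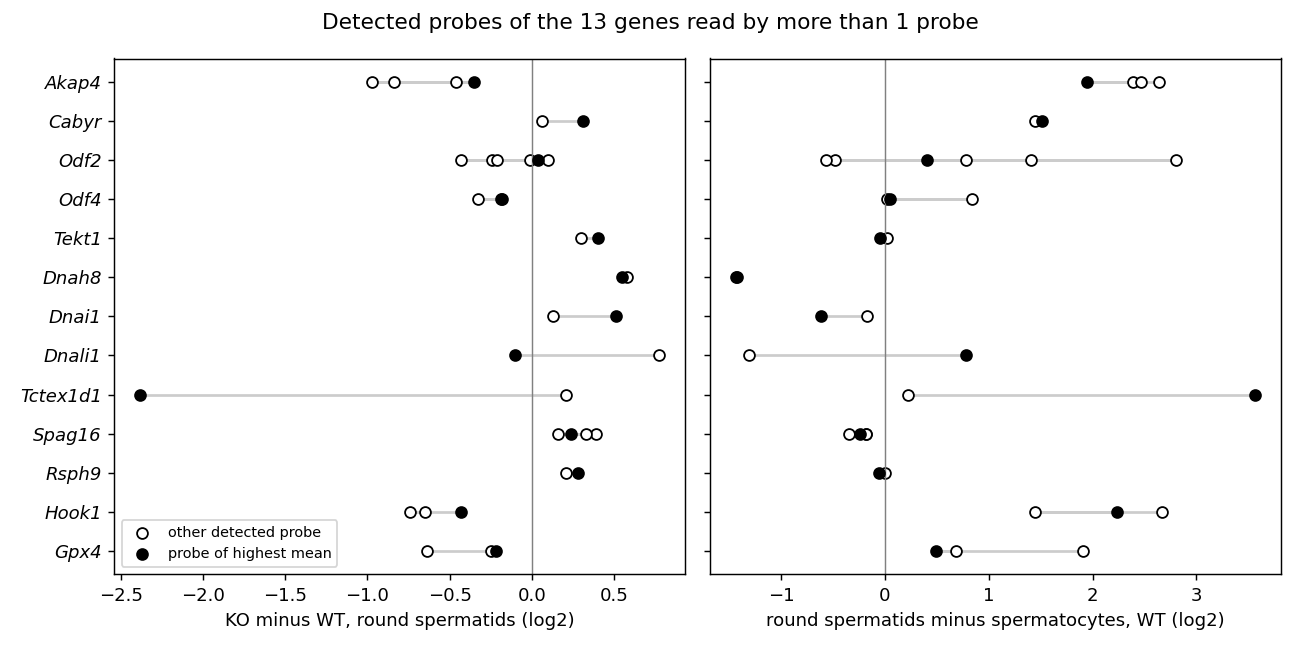
KO minus WT in round spermatids (left) and round spermatids minus spermatocytes in WT (right), both log2, for every detected probe of the 13 flagellum genes with more than 1; filled circles are the probe of highest mean, used throughout, and open circles the others. Tctex1d1 spans -2.38 to 0.21 on the left, and Odf2 spans -0.57 to 2.80 and Dnali1 -1.31 to 0.78 on the right.

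A wider list of 192 other genes of flagella, cilia and their assembly had 142 genes on the array and 116 measured. In round spermatids 3 of the 116 were higher in KO than in WT and 4 lower, with a median difference of 0.13, beside 6.89% higher, 7.99% lower and a median of 0.12 over all features. Odf3b, a gene of the Odf3 family, read 7.02, 7.17 and 7.10 in KO round spermatids, against 12.23, 11.75 and 12.58 in WT round spermatids (-5.09, SE 0.35, limma adjusted p = 1.7e-06). It was the 1 gene of the list lower in KO spermatocytes as well, at 6.06, 6.60 and 5.88 against 8.99, 9.40 and 10.50 in WT spermatocytes (-3.45, adjusted p = 0.000371). The KO arrays of Odf3b lay far below the WT arrays at both stages. Spem2, related to the spermatid maturation gene Spem1, read 9.03, 8.99 and 8.70 in KO round spermatids, against 11.15, 11.09 and 11.02 in WT round spermatids (-2.18, SE 0.34, adjusted p = 0.0011), without overlap. Spaca9 and Cfap410 were lower by -0.72 and -0.59 (adjusted p = 0.0461 and 0.0478). Cfap45, a protein inside doublet microtubules, was higher by 0.67 (adjusted p = 0.0125), the nexin-dynein regulatory protein Ccdc65 by 0.50 (adjusted p = 0.0456) and the dynein assembly factor Dnaaf1 by 0.45 (adjusted p = 0.0494). Over 22 alternatives of processing and of arrays left out, Odf3b and Spem2 passed in 22, Cfap45 in 19, Spaca9 in 13, Cfap410 in 11, Ccdc65 in 10 and Dnaaf1 in 8.

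Between the stages, 49 of the 116 genes were higher and 23 lower in round spermatids than in spermatocytes of KO mice, beside 26.4% higher and 24.0% lower among all features. In WT mice 45 were higher and 26 lower, beside 28.4% and 31.9%. The medians were 0.18 in KO and 0.23 in WT, beside 0.01 and -0.12 over all features. The difference between the KO effects of the stages passed for 0 of the 116 genes, beside 1.49% of all features.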

How the data were processed

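RNA of spermatocytes and round spermatids of Nutm1 KO and WT mice was labelled as biotin cRNA and read on 24 Illumina bead arrays. Per the file headers, the deposited table gives each probe a non-normalized intensity and a detection p-value on every array; the scanner software and any background subtraction are not given in the sources used here. A second deposited table holds the authors' processed intensity values. They match a quantile normalization of the first (median difference 9.41e-05 on the log2 scale). Replicates 4 to 6 of each group are mixtures of the RNA of replicates 1 to 3, per the labels, so tests used the 12 direct arrays.

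The neqc function (limma 3.58.1 under R 4.3.3, with an offset of 16) corrected background, using the detection p-values, and brought the 24 arrays to common log2 quantiles. Probes with detection p under 0.01 on at least 3 direct arrays were kept (17401 of 45281), the brightest probe on average stood for each gene, and 12705 features remained (10076 named, 2629 unnamed). A model of the 4 group means was fitted with lmFit and eBayes, with Benjamini-Hochberg adjustment over all features, and its contrasts were tested 2-sided at 0.05. Adjusted p-values of genes are limma's. The fits were tested on simulated data. A 4-group fit estimates 1 spread per gene from all 12 arrays, so spermatocyte arrays bear on round spermatid calls.

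Per the labels, 1 fractionation gave both the round spermatids and the spermatocytes of a replicate number within a genotype, while KO and WT share only numbers. Residuals of same-numbered stages correlated at -0.20 to 0.41, and those of other numbers at -0.45 to 0.25. Blocks were alternatives, with other scalings, filters, probe rules and arrays left out.

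The genes and lists were chosen with earlier results of these data known, so their counts are a description of these genes. Genes given with every array are those that passed in either KO against WT comparison or in the difference between stages, the largest KO minus WT difference in round spermatids of each role, and the 6 largest rises and falls that passed in each stage comparison. Of the other flagellum genes, up to 10 that passed in each KO against WT comparison are named. Array values of further genes, among them Dnai1 and Akap4 in KO against WT round spermatids, were chosen after their values were seen. The number of arrays limits the precision.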

Additional observations from a re-analysis of the deposited data

How the results depend on the processing

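The counts of genes below are given without the share of all features called in the same setting. Whether a changed count differs from the change over all features was not tested. In KO against WT round spermatids, Tctex1d1 (-2.71 to -1.08, limma adjusted p up to 0.00748) and Tppp2 (-2.41 to -1.83, adjusted p up to 0.0346) passed in all 22 alternatives. Of the flagellum genes 0 were higher and 2 lower, and this became 2 higher with the authors' processed values (Tekt3 and Dnai1), 1 higher with no detection filter (Dnai1), 4 lower with cyclic loess scaling (Tekt5 and Smcp added), 1 higher and 4 lower with only the groups compared, and 5 higher and 4 lower with all 6 arrays per group, which counts mixtures as samples. With arrays left out in turn, 0 to 1 were higher and 2 to 4 lower: Dnai1 passed without KO spermatocyte array 1 or 3, Tekt5 and Smcp without WT spermatocyte array 3, and Smcp without WT spermatocyte array 1. Leaving out WT spermatocyte array 3 and KO spermatocyte array 1 together, chosen after seeing the data, gave 1 higher and 4 lower. In spermatocytes the flagellum genes passed only with all 6 arrays (7 higher, 5 lower). The difference between stages gave 1 lower with the authors' values (Tctex1d1), 2 higher and 2 lower with all 6 arrays, 0 to 1 lower with arrays left out in turn (Tctex1d1 without WT spermatocyte array 3) and 3 lower without both spermatocyte arrays (Akap4, Tctex1d1 and Tppp2).

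Of the 116 other flagellum genes, 3 were higher and 4 lower in round spermatids. The counts were 10 higher with the authors' values, 0 higher and 8 lower with cyclic loess, 6 higher with no filter, 24 higher and 13 lower with all 6 arrays, 8 higher and 8 lower with only the groups compared, 10 higher and 8 lower without both spermatocyte arrays, and 0 to 6 higher and 2 to 5 lower with arrays left out in turn. In spermatocytes they were 29 higher and 13 lower with all 6 arrays, and 0 to 1 higher with arrays left out. For the difference between stages they were 2 lower with the authors' values, 1 lower with the mean of the detected probes, 6 higher and 10 lower with all 6 arrays, 0 to 3 lower with arrays left out and 3 lower without both spermatocyte arrays. Between the stages of KO mice, 15 flagellum genes were higher and 4 lower, and 11 to 16 and 3 to 4 with arrays left out in turn. Without KO spermatocyte array 2 they were 11 and 3, which lost Akap4, Oaz3, Tekt3, Hook1 and Dnah8. Between the stages of WT mice, 17 were higher and 5 lower, and 15 to 18 and 3 to 5 with arrays left out in turn (3 lower without WT spermatocyte array 2, which lost Dnah8 and Dnah17). With the mean of the detected probes, Dnali1 (-0.27) and Cfap410 (-0.63) between the stages in WT and Dnaaf1 (-0.41) in KO reversed.

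With the replicate number as a block, 0 flagellum genes were higher and 2 lower in KO round spermatids. KO and WT share only these numbers and no fractionation, so that block pairs unrelated arrays. With fractionations as a block, 16 were higher and 4 lower between the stages in KO and 16 higher and 5 lower in WT. The fractionation block changed the calls of Tekt3, Tekt5, Dnai2 and Odf2 and no other flagellum gene. Of all calls in round spermatids 46.3% were higher in KO, and 23.7% with cyclic loess scaling, where the median of all features was -0.02 and not 0.12. Of all calls in spermatocytes 22.6% were higher, and 35.3% with the authors' values. For the difference between stages 12.2% were positive, 22.3% with the authors' values and 1.95% with loess, and for the stages of WT mice 47.1% were higher, and 57.6% with loess. With arrays left out in turn the share was 1.89% (without KO round spermatid array 2) to 35.2% (without WT round spermatid array 1) for the difference between stages, and 28.4% (without WT round spermatid array 2) to 53.1% (without KO spermatocyte array 1) for round spermatids. Unless stated, the cause of a change was not tested. Limits are 3 pooled fractionations per group, genes near the top of the signal range, and 1 probe for most genes.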

Other observations

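Arrays 4 to 6 of each group carry mixtures of the RNA of arrays 1 to 3 and are not independent of them. On these arrays Tctex1d1 read 8.84, 8.73 and 8.57 in KO round spermatids, against 11.29, 10.94 and 11.15 in WT round spermatids. Tppp2 read 10.35, 10.06 and 10.29 in KO round spermatids, against 12.18, 11.97 and 12 in WT round spermatids, and Smcp 13.90, 13.93 and 14.02 against 14.97, 14.71 and 14.95. In round spermatids the mixed arrays of the 3 genes lay apart by genotype, which follows from their sources and is not a separate result. The Tctex1d1 mixtures all lay above every direct array of their group (8.30, 8.44 and 8.19 in KO, 10.66, 10.72 and 10.68 in WT). In spermatocytes the mixed arrays of Tppp2 read 7.42, 7.09 and 7.44 in KO, against 8.02, 9.64 and 9.43 in WT. The lowest of the 3 WT arrays is the mixture without WT array 3, and it lay below both of its sources (8.67 and 8.17). The KO mixtures all lay below every direct KO spermatocyte array (8.01, 9.01 and 7.86), outside the range of their sources.

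Mixed arrays of KO spermatocytes fell further from the mean of their 2 sources than those of other groups. The median absolute deviation over the 29 flagellum genes was 0.40 to 0.48 (log2) in KO spermatocytes, 0.15 to 0.23 in KO round spermatids, 0.08 to 0.18 in WT round spermatids and 0.09 to 0.19 in WT spermatocytes. Over all features the KO spermatocyte values were 0.36 to 0.50. Single genes also left the range of their sources in WT. Ropn1 mixtures read 7.71, 7.70 and 7.38 in KO spermatocytes and 7.73, 8.17 and 7.89 in WT spermatocytes. The direct arrays of these groups read at most 6.69 and 6.61. The cause was not tested.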
